A study of Homo sapiens with 2 samples.

Results

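The spindle assembly and cytokinesis factors described here are 10 genes chosen by name from the factors that build the mitotic spindle or divide the cell after mitosis. They are TPX2, NUSAP1, HMMR, DLGAP5 and CKAP2, which encode spindle-associated proteins, and PRC1, ANLN, ECT2, RACGAP1 and CIT, which encode proteins of the spindle midzone and the cleavage furrow. Of the 10 genes, 9 had a transcript cluster, the group of probes by which the array reads a gene, among the 14526 named genes of the deposited table. CIT, a kinase of the midbody, had none under that symbol in the platform annotation, so its signal was not analysed here. Each of the 9 genes had 1 cluster, so no choice between clusters was needed.

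The samples are RNA of NUGC4 cells, an established human gastric cancer cell line, in 2 cultures that differed in the siRNA they received. One culture was given an siRNA against ANO5, which encodes the membrane protein anoctamin 5, and the other a negative control siRNA, each at 20 nmol/l and 24 h after seeding. Each group is 1 array, so every difference below compares these 2 RNA samples, no spread between cultures can be had, and no test or p-value is given. Only 1 siRNA sequence against ANO5 was used, so effects of ANO5 and effects of that siRNA on other transcripts cannot be told apart.

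When a cell divides, its microtubules form the bipolar spindle that moves the chromosomes, and TPX2, NUSAP1, HMMR, DLGAP5 and CKAP2 bind these microtubules, start new ones or hold them together. After the chromosomes separate, antiparallel microtubules are bundled into the midzone, which marks where RHOA is switched on at the cortex and where a ring of actin and myosin pulls the membrane inwards. Transcripts of many such genes are known to rise late in the cell cycle, in G2 and mitosis, under promoters that carry a short element called CHR, often with CCAAT boxes nearby. The first is known to be bound by the DREAM and MYBL2 complexes and the second by the factor NF-Y.

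Of the 9 genes, 7 had an entry among RefSeq promoter windows of the GRCh38.p14 build, matched by gene identifier. TPX2 and RACGAP1 had none. The windows run from 250 bases before to 50 bases after an annotated start of transcription. They were searched on both strands for TTTGAA and TTCGAA (forms of the CHR element), CCAAT, and TTCCCGC and TTGGCGC (forms of E2F sites). TTTGAA was found in the windows of 6 of these 7 genes, where 15.2% of all 35116 windows held it, and CCAAT in 5 of 7, where 34.6% of all windows did. Counted over genes, as a gene can have several windows, TTTGAA was found for 13.8% and CCAAT for 44.0% of the 8134 measured genes with a window. TTCGAA and TTCCCGC were in 0 of 7, and TTGGCGC in 2 of 7, NUSAP1 and ECT2. Over the same measured genes TTCGAA was found for 2.39%, TTCCCGC for 13.1% and TTGGCGC for 6.31%. In ECT2 the TTGGCGC match overlapped a CCAAT match. A match is a description of the letters and not evidence that a factor binds there.

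The following stretches show the TTTGAA match of each gene that lies nearest to the start, or for ECT2 the nearest before it, with 9 bases on either side and TTTGAA or its reverse complement in capitals. All are given 5′ to 3′ on the strand of the gene.
HMMR, chr5:163460595-163460624, plus strand: gtggggagaTTTGAATTTGAAaccggtagg
ANLN, chr7:36389827-36389856, plus strand: gcgctgaaaTTCAAATTTGAAcggctgcag
PRC1, chr15:90994541-90994564, minus strand: gtggcgcggTTTGAAattttgcgg
ECT2, chr3:172750602-172750625, plus strand: ttgggcttaTTTGAAacacacgca
DLGAP5, chr14:55191568-55191591, minus strand: tgcggcaagTTTGAAtttcgtgga
NUSAP1, chr15:41332885-41332908, plus strand: cgccagggaTTTGAAccgcgctga
HMMR held 2 adjoining copies on the forward strand, and ANLN 1 copy on each strand, end to end. The copy nearest the start began at position -22 in HMMR and at -20 in both ANLN and PRC1, counted from the start of transcription at position 1 with -1 as the base before it. In DLGAP5 and NUSAP1 it began just after the start, at 4 and 14. ECT2 held copies that began at -115 and 35 of the window shown, and an overlapping window, with a start 276 bases downstream, held the copy at 35 again and 1 more, which makes 3 distinct positions.

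The 100 bases before the start are shown for HMMR and PRC1, as examples of windows with both motifs, and for CKAP2, whose window held none of the 5 motifs searched. Capitals mark TTTGAA and CCAAT on either strand, which in HMMR include a forward and a reverse CCAAT that overlap.
HMMR, chr5:163460532-163460631, plus strand: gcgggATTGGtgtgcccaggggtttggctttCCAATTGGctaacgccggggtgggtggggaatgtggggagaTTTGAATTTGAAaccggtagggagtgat
PRC1, chr15:90994536-90994635, minus strand: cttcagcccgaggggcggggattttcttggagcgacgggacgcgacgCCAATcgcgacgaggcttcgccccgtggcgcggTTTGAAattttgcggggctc
CKAP2, chr13:52455888-52455987, plus strand: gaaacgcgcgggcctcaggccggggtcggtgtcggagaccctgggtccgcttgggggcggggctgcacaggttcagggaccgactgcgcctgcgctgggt
In PRC1 the CCAAT box began at -53, upstream of the TTTGAA at -20. The start used for CKAP2 lies 510 bases downstream of the start of the gene in RefSeq, so the absence of these letters concerns this window alone. CIT, which was not measured, held 2 TTTGAA matches, both on the reverse strand, and 3 CCAAT matches.

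**Figure D1:**
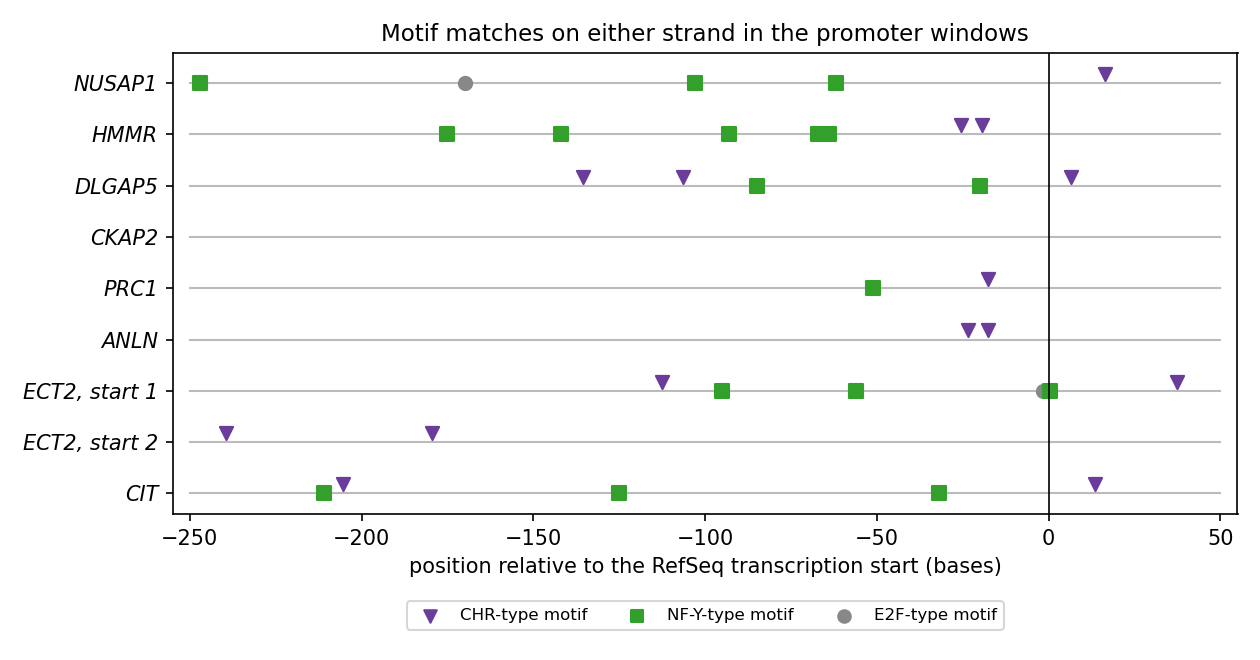
Positions of motif matches (points, either strand) along the RefSeq promoter windows of 8 genes, with the start of transcription at 0 and bases before it negative on the horizontal axis. CHR-type matches (triangles) lie within 50 bases of the first annotated start in NUSAP1, HMMR, DLGAP5, PRC1, ANLN, ECT2 and CIT, and the CKAP2 line carries no match. Of the 8134 measured genes with a window, 4.50% held TTTGAA within 50 bases of a start, a distance chosen after positions were seen.

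ANO5 itself had a log2 signal of 3.67 in cells given its siRNA and 6.83 in control cells, a difference of -3.16. The lower value lay at or above only 4.68% of all clusters on its array, so this fold may be limited by background. With a pseudocount of 16 on the linear scale the difference was -2.18. All 6 epithelial markers were high on both arrays, at 13.3 to 17.4 in ANO5 siRNA cells and 13.3 to 17.1 in control cells. Markers of other lineages were mostly near background: in the measured range were COL1A2 of 3 fibroblast genes in the table, LYZ of 5 blood genes and VWF of 2 endothelial genes, 1 for each. In ANO5 siRNA and control cells COL1A2 had 7.92 and 8.03, LYZ 9.8 and 10.88, and VWF 7.66 and 7.14. The other markers of these lineages in the table lay below the measured range. The rest of the 6 fibroblast, 6 blood and 4 endothelial markers listed were absent from the table. The measured range comprised the 9735 genes whose mean of both arrays was at least 6.05, the 33rd percentile of named genes. The 105 olfactory receptor genes, which serve as a gauge of background, reached at most 6.27 on the ANO5 siRNA array and 6.15 on the control array.

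All 9 genes gave lower signal in ANO5 siRNA cells, each by 2-fold or more, where 11.3% of the measured genes were lower to that extent and 11.2% were higher. By 4-fold or more, a size taken after the values were seen, 7 of 9 were lower, against 3.28% of the measured genes. Among the 4899 measured genes whose mean level lay in the range spanned by the 9 genes, from 9.14 to 13.6 on the log2 scale, 11.9% were lower by 2-fold or more and 3.80% by 4-fold or more. The median difference of the 9 genes was -2.22, or 4.66-fold, beside a median of 0.07 over all measured genes. Every value of the 9 genes on either array lay above the highest olfactory receptor gene. Fewer cells in G2 and mitosis and less of each transcript per dividing cell would both lower these signals and cannot be told apart in RNA of whole cultures.

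**Figure D2:**
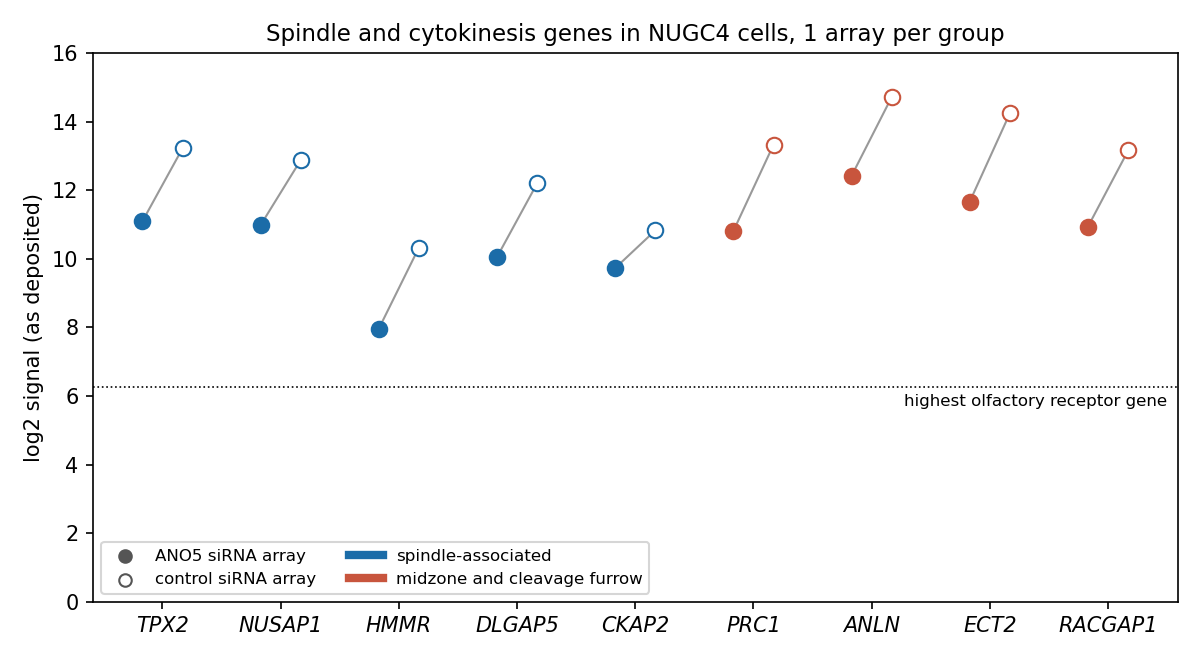
Log2 signal as deposited (vertical axis) of the 9 measured genes on the ANO5 siRNA array (filled, left of each pair) and the control siRNA array (open), with 1 array per group and hence no error bars. Each filled point lies below its open partner, and all points lie above the highest olfactory receptor gene (dotted line, 6.27).

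Among the spindle-associated genes, HMMR showed the largest decrease. HMMR, the hyaluronan-mediated motility receptor that also acts inside the cell at spindle poles, had a log2 signal of 7.96 in ANO5 siRNA cells and 10.33 in control cells, a difference of -2.37 or 5.17-fold. It was also the lowest of the 9 genes in level on the ANO5 siRNA array, still 1.69 above the highest olfactory receptor gene there.

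DLGAP5, also called HURP, stabilises the microtubule bundles that reach the chromosomes. Its log2 signal was 10.05 in ANO5 siRNA cells and 12.20 in control cells, 4.44-fold lower. TPX2, which starts microtubules around chromosomes and activates the kinase Aurora A, gave 11.09 in ANO5 siRNA cells and 13.22 in control cells, 4.38-fold lower. These decreases differed from each other by only 0.02 on the log2 scale.

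NUSAP1, which bundles spindle microtubules near the chromosomes, had a log2 signal of 10.98 in ANO5 siRNA cells and 12.88 in control cells, 3.73-fold lower. CKAP2, a microtubule-associated protein of the spindle poles, had 9.73 in ANO5 siRNA cells and 10.83 in control cells, a difference of -1.10 or 2.14-fold. CKAP2 thus stood nearest to no change, 0.80 on the log2 scale from NUSAP1, its neighbour in the order, while the other 8 genes lay within 0.68 of each other. It was also the gene whose promoter window, with a start 510 bases downstream of the RefSeq gene start, held none of the motifs searched. Whether these facts are related was not tested, and TPX2 and RACGAP1 had no window to compare.

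Among the midzone and cleavage furrow genes, ECT2 and PRC1 showed the largest decreases of all 9. ECT2, the exchange factor that switches on RHOA at the cell's equator, had a log2 signal of 11.67 in ANO5 siRNA cells and 14.25 in control cells, a difference of -2.58 or 5.98-fold. Differences at or below this one were seen in 1.37% of measured genes. PRC1, which crosslinks the antiparallel microtubules of the midzone, gave 10.81 in ANO5 siRNA cells and 13.33 in control cells, 5.74-fold lower, and 1.46% of measured genes were at or below that difference.

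ANLN, or anillin, the scaffold that ties actin, myosin, septins and RHOA together in the furrow, had a log2 signal of 12.42 in ANO5 siRNA cells and 14.72 in control cells, 4.92-fold lower. RACGAP1, which forms the centralspindlin complex with the kinesin KIF23 and recruits ECT2, had 10.94 in ANO5 siRNA cells and 13.16 in control cells, 4.66-fold lower. The 4 measured furrow and midzone genes lay close together, from -2.58 to -2.22, a range of 0.36, whereas the 5 spindle-associated genes spanned 1.27, from -2.37 to -1.10. Without CKAP2 the other spindle-associated genes spanned 0.47, so that gene alone carried most of the wider spread.

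The median difference was -2.41 (5.31-fold) for the 4 midzone and furrow genes and -2.13 (4.38-fold) for the 5 spindle-associated genes, a gap of -0.28 on the log2 scale. The sets overlapped, since HMMR was lower than ANLN and RACGAP1. By means in place of medians the gap was -0.475, and with PRC1, itself a microtubule-binding protein, counted among the spindle-associated genes it was -0.16. Without CKAP2, a comparison added after the data were seen, it was -0.27. With 1 array per group no error can be set on any of these gaps.

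**Figure D3:**
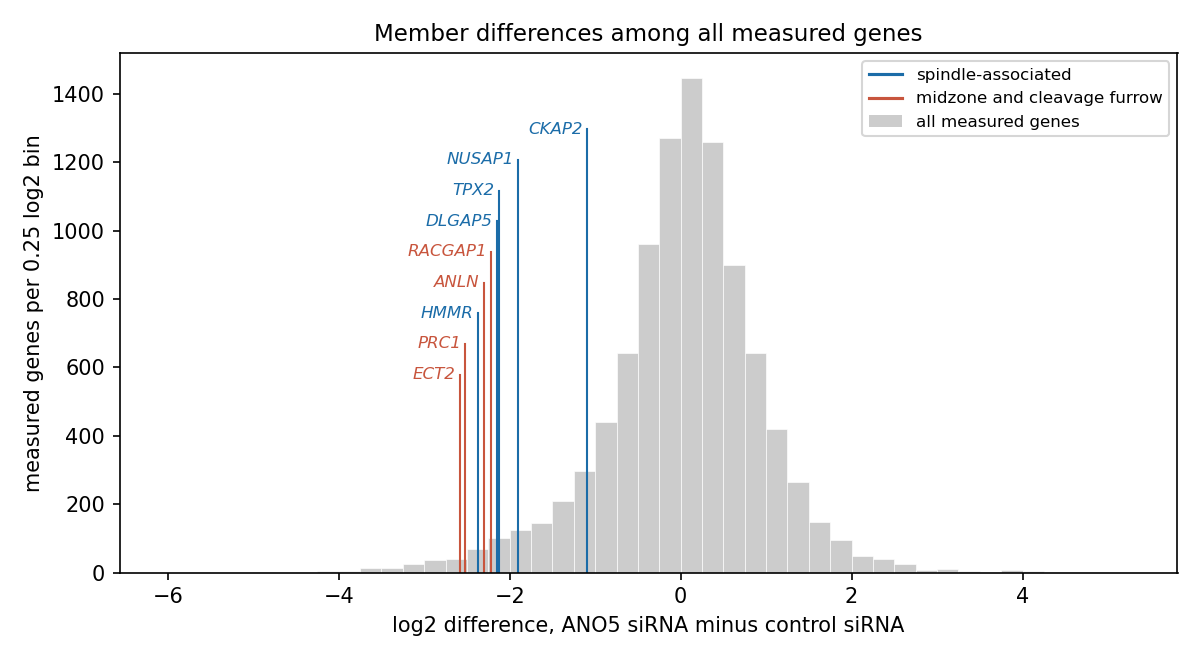
Log2 difference, ANO5 siRNA minus control siRNA (horizontal axis), of the 9 genes (vertical lines, labelled, whose heights carry no value) over the distribution of the 9735 measured genes (grey bars, genes per 0.25 log2 bin). The 4 midzone and furrow genes lie between -2.58 and -2.22 in the lower tail, and CKAP2 at -1.10 is the one nearest to the bulk.

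The partners of these genes were then described in 9 lists, with members counted as higher or lower at 1.5-fold, a size at which 20.1% of all measured genes were lower and 23.2% higher. The list of central spindle motors and the chromosomal passenger complex had 10 of 10 members lower, with a median of -1.78. PLK1, the kinase that licenses ECT2 to bind centralspindlin, had a log2 signal of 11.59 in ANO5 siRNA cells and 15.75 in control cells, a difference of -4.16. AURKB (-3.33), BIRC5 (-2.55), INCENP (-1.93) and CDCA8 (-1.52), which make up the passenger complex, were all lower.

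The motors KIF4A (-2.16), KIF20B (-1.62), KIF23 (-1.38), KIF20A (-1.30) and KIF14 (-1.20) were lower as well. KIF4A, which PRC1 recruits to the midzone, had 7.84 in ANO5 siRNA cells and 10.00 in control cells, a difference within 0.36 of that of PRC1. KIF23 had 10.67 in ANO5 siRNA cells and 12.05 in control cells, so that its difference was 0.84 smaller in size than that of RACGAP1, its partner in centralspindlin.

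On the spindle side, the list of RAN, Aurora A and partners had 6 of 10 measured members lower and 1 higher, with a median of -0.73. TACC3, which crosslinks spindle fibres, was 5.58-fold lower. AURKA, the kinase that TPX2 activates, had 13.06 in ANO5 siRNA cells and 14.43 in control cells, 2.58-fold lower and 0.76 less in size on the log2 scale than TPX2. RANGAP1 was 2.01-fold lower, while the GTPase RAN differed by -0.01, NUMA1, a pole-focusing protein that is also nuclear in interphase, by 0.33, and CLTC, the clathrin heavy chain, by 0.75.

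Of 11 other spindle-associated genes, 7 were lower and 2 higher, with a median of -1.44. The lowest were SPAG5 and FAM83D, at -1.85 each, and ASPM, which acts at spindle poles, at -1.68. SPAG5 had 5.40 in ANO5 siRNA cells and 7.25 in control cells, and the lower value is below the highest olfactory receptor gene, so its fold may be limited by background. CLASP2, CLASP1 and TTC28 differed by 0.24, 0.68 and 0.76. TTC28, counted as higher, had 5.73 in control cells, below the highest olfactory receptor gene there, so background may limit its fold too. CKAP2L, singled out after its value was seen as the paralogue of CKAP2, was at -1.58, beside -1.10 for CKAP2 itself.

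Augmin and the gamma-tubulin complex, which start new microtubules from existing ones and from the centrosome, had 7 of 12 measured members lower and 0 higher, with a median of -0.68. TUBGCP3 (-1.80), HAUS6 (-1.58) and HAUS1 (-1.47) were lowest, and TUBGCP2, MZT2B and TUBG2 differed by 0.15, 0.27 and 0.49. In contrast, microtubule-associated proteins that work mainly in interphase had 0 of 19 members lower and 6 higher, with a median of 0.32. MAPRE1, which tracks growing microtubule ends, was the lowest of them at -0.55, followed by MAP7D1 at -0.41 and CAMSAP3 at -0.18. At the other end, MAP7 differed by 1.32 and CAMSAP2 by 1.13, and MAPRE3 by 3.91, with 10.16 in ANO5 siRNA cells and 6.25 in control cells. The MAPRE3 control value is close to the highest olfactory receptor gene, so that background may limit its fold. The same holds for HAUS1, at 6.34 in ANO5 siRNA cells. CAMSAP3, at 6.06 in ANO5 siRNA cells and 6.24 in control cells, also lay near that level.

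**Figure D4:**
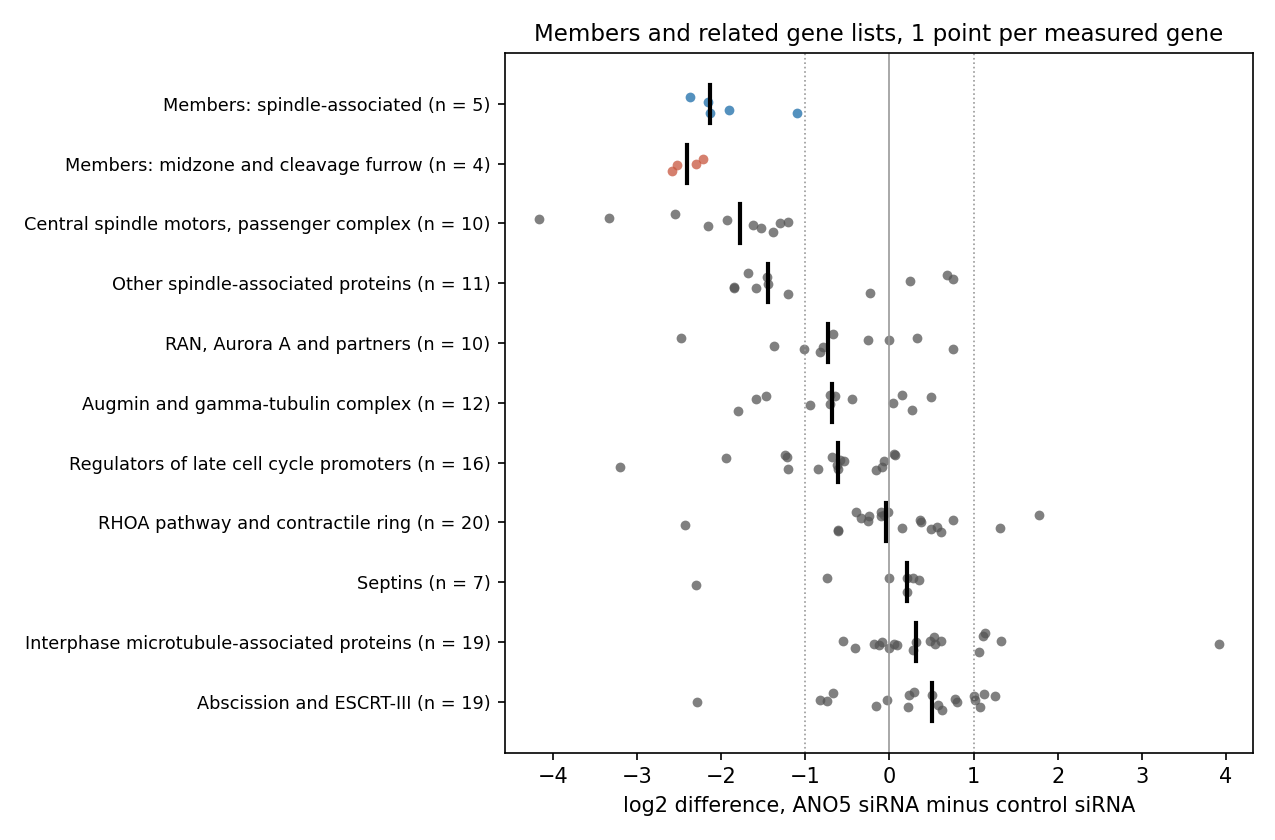
Log2 difference, ANO5 siRNA minus control siRNA (horizontal axis), of each measured gene (points) in the 2 sets of spindle and cytokinesis genes and in 9 related lists, with medians as black bars and dotted lines at 2-fold. All points of the 2 sets and of the list of central spindle motors lie left of the 2-fold line, whereas the contractile ring, septin, interphase and abscission lists centre near or right of 0.

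Downstream of ECT2, the RHOA pathway and contractile ring list had 3 of 20 measured members lower and 4 higher, with a median of -0.05. RHOA, the GTPase that ECT2 activates, had 15.53 in ANO5 siRNA cells and 15.63 in control cells, a difference of -0.10 beside -2.58 for ECT2. DIAPH3, a formin that builds the actin of the furrow, was the lowest of the list at -2.43. The myosin heavy chain MYH9, which works with anillin, was at -0.61 and the light chain MYL9 at -0.61, while ACTB, beta-actin, differed by -0.34. MYL9 had 6.38 in ANO5 siRNA cells, near the highest olfactory receptor gene, so background may limit its fold. At the upper end were RHOB at 0.76, the myosin heavy chain MYH14 at 1.31 and the actin-severing protein CFL1 at 1.78.

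Septins, the filaments that anillin brings to the furrow, had 2 of 7 measured members lower and 0 higher. SEPTIN8 differed by -2.30, SEPTIN11 by -0.74 and SEPTIN10 by -0.01, whereas SEPTIN7, SEPTIN2 and SEPTIN9 lay at 0.21, 0.28 and 0.35. The list of abscission and ESCRT-III, the machinery that makes the final cut, had 4 of 19 lower and 8 higher, with a median of 0.51. CEP55, which recruits this machinery to the midbody, had 8.60 in ANO5 siRNA cells and 10.88 in control cells, 4.86-fold lower. The general ESCRT genes IST1 and CHMP1A were at -0.82 and -0.74, and CHMP7, CHMP4B and CHMP4C at 1.08, 1.12 and 1.26.

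Among the regulators of late cell cycle promoters, whose complexes are known to bind CHR elements and CCAAT boxes, 10 of 16 were lower and 0 higher, with a median of -0.62. MYBL2 had 10.66 in ANO5 siRNA cells and 13.86 in control cells, a difference of -3.20. FOXM1, a transcription factor of G2 and mitosis, had 10.83 in ANO5 siRNA cells and 12.77 in control cells, 3.84-fold lower, and LIN9, a core subunit of these complexes, was 2.36-fold lower. LIN52 differed by -0.07, TFDP2 by 0.06 and NFYB, a subunit of NF-Y, by 0.07. Whether the level of any of these regulators bears on the 9 genes was not tested.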

How the data were processed

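The deposited table holds 1 value for each of 17345 transcript clusters on each of 2 arrays. The authors' deposited values, which run from 2.13 to 18.15, were taken to be on a log2 scale because of that range. Agilent Feature Extraction 12.0.3.1 is named per the submitters' processing notes, although the identifiers look like those of a different manufacturer. How background was corrected and arrays were normalized, the log base and the build were not given in the sources used here. No detection calls were used. The medians were 7.68 (ANO5 siRNA) and 7.69 (control). The number of arrays limits the precision.

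Names came from the platform annotation: 14544 clusters had 1 symbol, 0 several and 2801 none, and matching to RefSeq by Entrez identifier changed 0 symbols. For 16 genes with several clusters the one with the highest mean was kept. Differences are ANO5 siRNA minus control, on deposited values. The named genes are the 9 measured ones, ANO5, all of the list of 10, fixed partners, and the 3 lowest and 3 highest measured genes of longer lists. The genes and lists were chosen with earlier results of these data known. The results of 1 of the lists are not reported here. Only the calling of planted genes at 2-fold, without the filter, was tested on simulated data, whose noise was narrower than the spread of these data. The 1.5-fold list counts and the motif counts were not tested in that way. Alternatives were 3 other scalings, loess (span 0.4), a pseudocount of 16, other filters and other thresholds. Python 3.11.15, numpy 2.4.6, pandas 2.3.3 and statsmodels 0.14.6 were used.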

Additional observations from a re-analysis of the deposited data

How the results depend on the processing

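All 54 values of the 9 genes under other scalings, the pseudocount and the median over clusters stayed lower by 2-fold or more. CKAP2 ranged from -1.22 to -1.09 and ECT2 from -2.70 to -2.57. Each gene has 1 cluster, so the choice of cluster could not move them, and centring and the 75th percentile hardly could. Shifts over 0.1 on the log2 scale, and counts over 1.5 times apart, were as follows. Loess on the mean level gave medians of -2.26 (spindle-associated), -2.53 (midzone and furrow), -1.90 (central spindle), 0.077 (septins) and -0.72 (late cell cycle regulators), and moved the median of all measured genes to -0.0062 from 0.07. It lowered 7 of the 9 single genes by over 0.1, among them TPX2 to -2.26, NUSAP1 to -2.03 and RACGAP1 to -2.35. The pseudocount gave -2.18 for ANO5, beside -3.16, and -1.33 for other spindle-associated proteins. Without a filter the septin median was 0.02. Moving PRC1 to the spindle-associated genes gave a midzone and furrow median of -2.30 and a gap of -0.16, and means gave -1.93 for the spindle-associated genes and a gap of -0.475. Measured genes lower and higher numbered 1961 and 2257 at 1.5-fold and 522 and 343 at 3-fold, because the threshold changed. No sign changed under the alternatives run on the 2 sets, the 9 genes and the 9 lists. No paired analysis was possible because each group has 1 array, and no replicate could be left out.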

Other observations

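The TTTGAA element was counted in the promoter windows of all measured genes that have one, as a description over genes, which are not independent. It was present for 20.4% of the 926 genes lower by 2-fold or more in ANO5 siRNA cells, 12.9% of the 6302 genes within 2-fold and 13.2% of the 906 genes higher by 2-fold or more. Within 50 bases of the start, a distance chosen after the positions in HMMR, PRC1 and ANLN were seen, the shares were 9.72%, 3.94% and 3.09% in the same order. CCAAT was present for 48.9%, 43.7% and 40.6%, and TTCCCGC for 18.8%, 12.6% and 10.5%. Most genes lower by 2-fold or more had no TTTGAA in the window, and no test was made of these shares.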
